A study of Homo sapiens with 267 samples.

Results

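This report is about single K562 cells that carried much or little embryonic and alpha globin RNA in one run of the series. A run here is the set of libraries that share a title prefix. K562 is an established human leukaemia line of erythroid character, driven by the BCR-ABL1 fusion kinase. Libraries were grouped by a globin score, the mean of log2(CPM + 1) of HBE1, HBZ, HBA1 and HBA2, where CPM is reads per 1000000 reads on genes. Of 96 libraries in the run, 91 passed the limits of at most 70% of reads in the top 500 genes and fewer than 10000 genes at more than 2 reads. The 30 with the highest score formed the globin-high group, the 30 with the lowest formed the globin-low group, and 31 lay between them. These 60 libraries come from a series of 267 samples, 263 of which had counts used here.

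In this run 51 libraries were untreated cells stained with CellTracker Green, and 45 were cells stained with CellTracker Orange and given 1 µM imatinib, a BCR-ABL1 kinase inhibitor, for 1 h. Stain and drug cannot be told apart. The labels give all cells of this run a passage range of 20 to 22. The study captured both fresh cells and cells fixed with the reversible cross-linker DSP (dithio-bis(succinimidyl propionate)) on C1 fluidic circuits, and the labels used here do not say which library was which. In each experiment of the study, fresh cells were captured at once and fixed cells of the same batch days later. If this run is such an experiment, it holds more than 1 capture. The study also prepared bulk RNA controls beside each run, and the labels do not mark these either. Each stain of a run came from 1 culture, so libraries of a stain are cells of one culture and not replicates of a condition. The groups were themselves cut from a measured value. For both reasons the values below carry SDs over libraries and counting intervals, and no test.

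Haemoglobin is built from 2 alpha-type and 2 beta-type globin chains, each holding a haem group. HBZ and HBE1 are the embryonic alpha-type and beta-type genes, HBG1 and HBG2 the fetal ones, and HBA1 and HBA2 the alpha genes used from fetal life onwards. In maturing red cells the globins are made together with the enzymes of haem synthesis, a chaperone for free alpha globin, and the spectrin skeleton that lies under the membrane. The score asks which of these other genes were higher or lower in cells with more globin RNA.

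The 4 genes that chose the libraries are given here as a description. HBE1 had a median of 680 CPM in the high group (range 176 to 2683) and 131 CPM in the low group (3.22 to 632). HBZ had a median of 305 CPM (109 to 1118) against 16.7 CPM (0 to 332). HBA2 had medians of 259.5 and 53.4 CPM, and HBA1 had medians of 81.9 and 24.5 CPM. HBZ had the widest gap, with a difference in mean log2(CPM + 1) of 4.45, against 2.64 for HBE1, 2.44 for HBA2 and 2.41 for HBA1. That order did not hold everywhere, as HBZ was narrowest of the 4 among libraries numbered 49 to 96 in their titles, at 0.72 against 1.29 to 1.47. HBA1 and HBA2 are near-identical copies and reads that matched both were not counted, so their separate values are uncertain. The last library inside the high group scored 7.57 and the first outside it 7.51, while the low group began at 6.56 with 6.61 just outside. The cut-offs thus fall at no gap in the scores and were not set to part cell types. Whether the run holds separate cell populations was not tested.

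The fetal globins, which were outside the score, were also higher in the high group. HBG2 had a median of 2982 CPM in the high group and 1293 CPM in the low group, a difference of 1.57 on the log2(CPM + 1) scale. HBG1 had medians of 906 and 395 CPM, a difference of 1.54. Reads that matched both HBG1 and its copy HBG2 were not counted, so their separate values are uncertain. The direction was the same in Green and Orange for both. The beta-globin pseudogene HBBP1 differed by 1.82. HBD, the delta gene, was 2.67 higher in Green and 1.17 lower in Orange (a difference of -1.17), and HBQ1, the theta gene, differed by 0.12. HBB, the adult beta gene, was above 2 reads in 1 library of the high group and in 0 of 30 of the low group, which allows a share of up to 11.6% (exact binomial 95% bound). HBE1 and HBG2 overlap each other and several olfactory receptor genes in the annotation, taken as whole gene spans with introns. How far this limits the assignment of reads there was not measured.

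The libraries carried the RNA of K562 cells in both groups. PRAME, a cancer-testis antigen typical of the line, had medians of 3339 and 3608 CPM in the high and low groups and was detected in all 60. GATA1, the master erythroid transcription factor, had medians of 463 and 445 CPM and differed by 0.08, from -0.55 in Green and 0.67 in Orange. TFRC, the transferrin receptor, differed by 0.07, from -0.41 and 0.71, and RHAG, a Rh complex protein, by -0.41. Of the 23 megakaryocyte markers, 9 were at 0 in every kept library, among them PF4, GP9 and VWF. Of the 20 myeloid markers, 7 were at 0, among them MPO, ELANE and S100A8. CD34 and PROM1 of the progenitor list and CD79A and MS4A1 of the lymphoid list were at 0 as well. The summed level of the megakaryocyte list had a median of 99.2 CPM in the high group (3.37 to 487) and 169 CPM in the low group (10.03 to 608). For the myeloid list it was 52.7 CPM (1.10 to 473) and 149 CPM (6.92 to 631), for the progenitor list 490 and 369 CPM, and for the lymphoid list 46.1 and 55.4 CPM. The part of these lists in the differences below was not tested.

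The globin score moved with the library number. Titles number the libraries from 1 to 96, and the split at the midpoint was chosen after the values were seen. Of the low group, 27 of 30 libraries were numbered 1 to 48, or 90% (exact binomial 95% interval 73.5 to 97.9). Of the high group, 13 of 30 were, or 43.3% (25.5 to 62.6), and of the middle group 7 of 31. Both groups held 15 Green and 15 Orange libraries. Scores of the 47 kept libraries numbered 1 to 48 ran from 2.80 to 9.57, while those of the 44 numbered above 48 ran only from 6.35 to 8.71. The labels do not say what the number stands for. A difference between the groups and a difference between these number sets therefore cannot be told apart in the pooled values. The same holds for groups cut inside each stain, where libraries of the low groups were again mostly numbered 1 to 48. Values within each set are therefore given beside the pooled ones for the genes and lists described most fully, with high and low groups cut anew inside the set (15 libraries each in numbers 1 to 48 and 14 each in 49 to 96). Within numbers 1 to 48 these groups had mean scores of 8.14 and 4.12, and within numbers 49 to 96 they had 7.99 and 6.76, a much narrower contrast. HBG2 differed by 2.32 and 0.41 within the sets and HBG1 by 2.26 and 0.37.

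**Figure D1:**
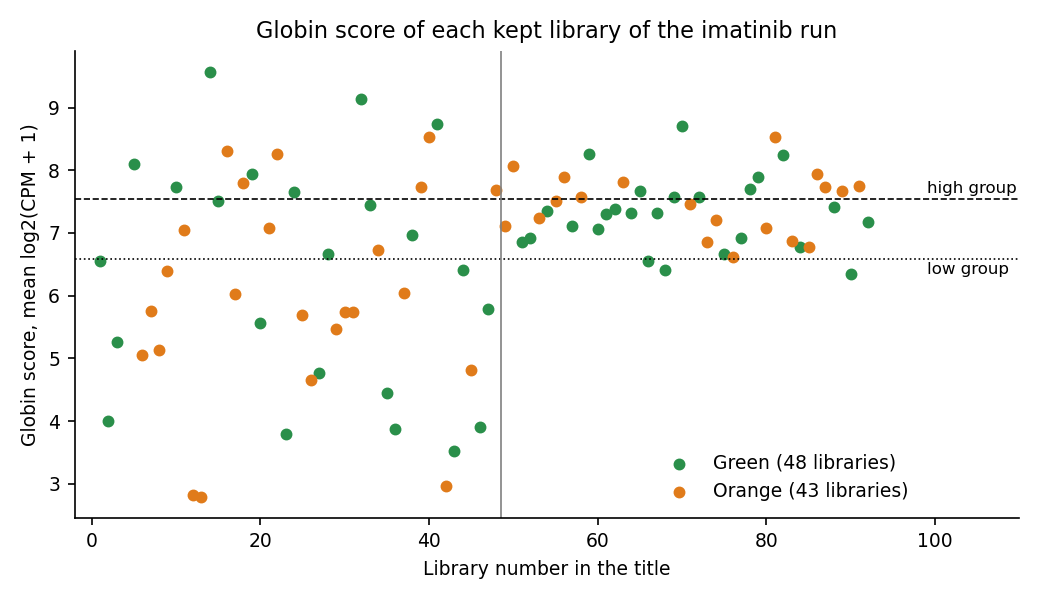
Globin score of each of the 91 kept libraries (vertical axis, mean log2(CPM + 1) of the 4 genes) against the number in its title (horizontal axis), coloured by stain. The dashed and dotted lines mark the cut-offs of the high and low groups and the grey line the split after number 48. Scores from 2.80 to 9.57 appear left of the grey line and from 6.35 to 8.71 right of it, with Green and Orange mixed on both sides.

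Depth and composition also differed. Reads on genes ran from 722407 to 1690631 per library, with medians of 1180770 in the high group and 1281949 in the low group. Genes at more than 2 reads had medians of 7826 and 8484 (5571 to 9126 and 5201 to 9918). Reads of mitochondrially encoded genes took a median of 7.45% in the high group and 5.65% in the low group, and the ERCC spike-ins, RNAs added in fixed amount, took 8.77% and 6.11%. Within numbers 1 to 48 the mitochondrial medians were 6.09% and 5.46%, and the ERCC medians 6.54% and 5.98%. Within numbers 49 to 96 the mitochondrial medians were 11.4% and 9.67%, and the ERCC medians 12.04% and 13.8%, the other way round. The sets themselves stood apart, with median ERCC shares of 6.21% in numbers 1 to 48 and 12.2% in 49 to 96, mitochondrial shares of 5.58% and 9.64%, and 8389 and 7031 genes. Across the 91 libraries the score had a Spearman rho of -0.25 with genes detected, and -0.16 and -0.03 within the 2 number sets. Green 43, in the low group, stood apart with 30.0% ERCC reads, 0.23% mitochondrial reads and 5201 genes, and Orange 42, also in the low group, had 18.3% ERCC reads. The part of these measures in the gene differences was not tested.

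Beyond the globins, few genes differed in the same direction in both stains, and those that did were mostly lower in the globin-high cells. A gene was called where the high group exceeded the low group by at least 1 in mean log2(CPM + 1), or fell short of it by at least 1, in Green and in Orange separately, with high and low groups cut anew inside each stain (16 libraries each in Green and 14 each in Orange). A called gene can therefore have a pooled difference of less than 1. Of 10487 genes other than globins that were above 2 reads in at least 20% of the libraries, 53 were called higher, which is 0.505% of them. Another 304, or 2.90%, were called lower. For comparison, 157 genes passed 1 in opposite directions in the stains. The median difference over all 10487 genes was -0.19 and 63.8% lay below 0, so the whole table leaned towards lower values in the high group. Centred on that median, 117 were called higher and 176 lower. With log2(CPM + 10), which damps genes at a few CPM, only 4 were called higher and 14 lower, so most calls did not hold once genes at a few CPM were damped. The 4 were AHSP, ALAS2, AP3D1 and MYL4, the last a myosin light chain outside the naming rule. Without Green 43 and Orange 42, 50 genes were called higher and 448 lower, of which 34 and 248 were among the 53 and 304.

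**Figure D2:**
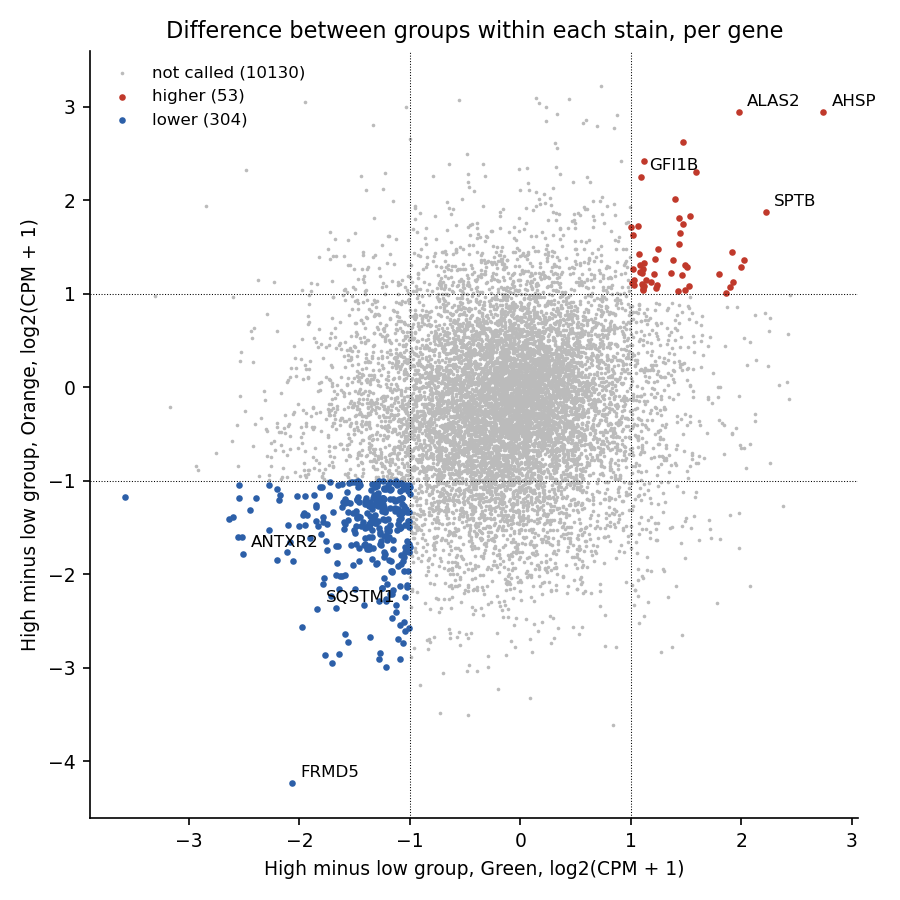
Each point is one of 10487 genes, with the difference between the groups in mean log2(CPM + 1) within Green on the horizontal axis and within Orange on the vertical axis. Red points were called higher (53), blue points lower (304), and dotted lines mark differences of 1. AHSP and ALAS2 lie farthest up and to the right and FRMD5 lowest, while most genes crowd around 0.

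Calling by number set in place of stain gave 96 higher (0.915%) and 137 lower (1.31%), with 160 past 1 in opposite directions. Genes called by both criteria numbered 13 higher and 48 lower, though both criteria split the same libraries. The 13 were AHSP, CARS2, PLCD1, TWNK, NCALD, ID3, ZNF574, OCRL, PARP14, PSKH1, FBXO21, HSD3B7 and DDX28, listed in full because they are few, and not all named by the rule for leading genes. Among the genes called lower by both were ANTXR2, SQSTM1, CTSH, ETV4, GMPR2, KANSL1 and BRAF. The last, a kinase of the ERK pathway, was singled out after its values were seen and differed by -1.56, and by -1.46 and -2.42 within the number sets.

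AHSP, the chaperone that binds free alpha globin and keeps it from precipitating, led the genes that were higher. It lies on chromosome 16 at 31539221 to 31540124 (GRCh37, plus strand; ENSG00000169877) and overlaps no other annotated gene. In the high group its lowest, median and highest levels were 0, 10.7 and 194 CPM, and in the low group they were 0, 0 and 15.5 CPM. AHSP was above 2 reads in 17 of 30 high-group libraries, or 56.7% (exact binomial 95% interval 37.4 to 74.5). The same held for 8 of 31 libraries in the middle and for 2 of 30, or 6.67% (0.818 to 22.1), in the low group. The groups overlap, since 11 libraries of the high group had no AHSP read, but 27 of the low group had none.

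Pooled over the group, AHSP stood at 28.3 CPM in the high group (exact Poisson 95% interval 26.5 to 30.1) and 0.671 CPM in the low group (0.438 to 0.983), intervals that cover counting error only. Mean log2(CPM + 1) was 2.99 ± 2.74 in the high group and 0.22 ± 0.80 in the low group (SD over 30 libraries each), a difference of 2.77. It was 2.74 in Green and 2.95 in Orange. Within numbers 1 to 48 it was 3.90 and within 49 to 96 it was 1.91, so the direction held in both sets. The library with the highest score, Green 14 at 9.57, also had the highest AHSP level, but Green 32, second with a score of 9.14, had none.

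ALAS2, the erythroid form of 5-aminolevulinate synthase, makes the first intermediate of haem. Its levels ran from 0 through a median of 141 to 1226 CPM in the high group and from 0 through 23.8 to 464 CPM in the low group. Mean log2(CPM + 1) was 5.87 ± 3.40 against 3.65 ± 2.98 (SD, 30 libraries each), a difference of 2.22. No ALAS2 read was found in 5 high-group and 6 low-group libraries, and the range of the low group lies inside that of the high group. The difference was 1.98 in Green and 2.94 in Orange. It was 3.88 within numbers 1 to 48 but only 0.45 within 49 to 96. ALAS1, the form of the enzyme used by all tissues, went the other way, with medians of 10.8 CPM in the high group and 81.6 CPM in the low group and a difference of -1.92. Within the number sets ALAS1 differed by -1.56 and -0.54. ALAS1 kept its call in 12 of 18 other settings. The call was lost, among others, with log2(CPM + 10), with number sets in place of stains, and with a score of HBE1 and HBZ or of HBA1 and HBA2.

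SPTB, the beta chain of spectrin, the rod-like protein of the red cell skeleton, was called higher. It had a median of 12.7 CPM in the high group (0 to 328) and of 0 in the low group (0 to 109). It was above 2 reads in 25 of 30 high-group libraries, or 83.3% (65.3 to 94.4), and in 12 of 30, or 40% (22.7 to 59.4), of the low group, a difference in mean log2(CPM + 1) of 2.12. SPTB differed by 2.15 and 0.70 within the number sets. The middle group stood close to the high group, at 3.82 on the log2(CPM + 1) scale against 3.99.

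**Figure D3:**
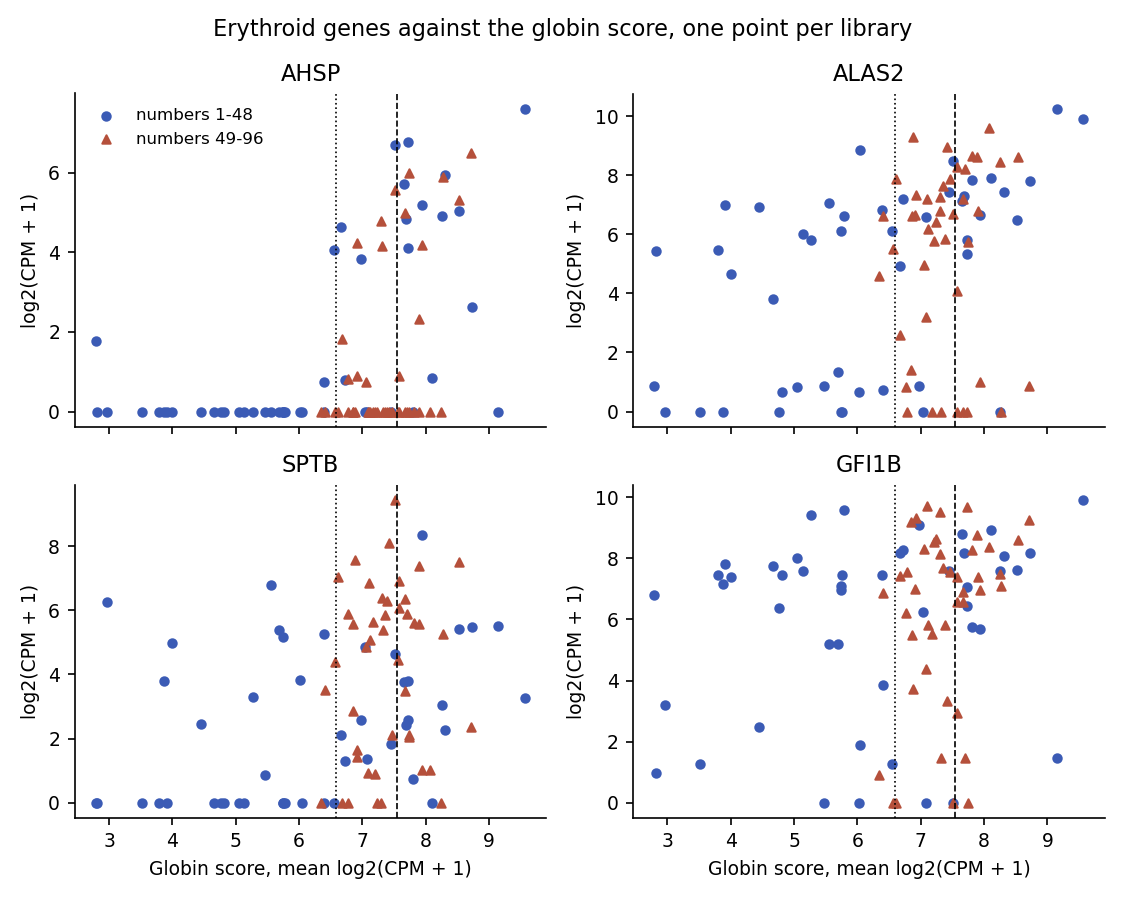
Level of AHSP, ALAS2, SPTB and GFI1B in log2(CPM + 1) (vertical axes) against the globin score (horizontal axes), 1 point per library, circles for numbers 1 to 48 and triangles for 49 to 96. Dotted and dashed lines mark the low and high cut-offs. AHSP was above 2 reads in 2 of 30 libraries left of the dotted line, whereas the other 3 genes were scattered at all scores.

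The promoters of ALAS2 and SPTB, the first 250 upstream bases from RefSeq, are shown as examples of erythroid genes called higher. Both hold a match to the letters searched, which only 8 of the 47 promoters of genes called higher do, so they do not stand for the rest. GATA1 and other GATA factors bind the letters AGATAA or AGATAG and also TGATAA or TGATAG, which were searched on both strands and are in capitals. The ALAS2 sequence is chrX:55030978-55031227 (GRCh38.p14, minus strand) and holds 1 match, 127 bases before the start. The SPTB sequence is chr14:64879908-64880157 (GRCh38.p14, minus strand), the upstream one of its starts, and holds 2 matches, 92 and 42 bases before the start.
ALAS2: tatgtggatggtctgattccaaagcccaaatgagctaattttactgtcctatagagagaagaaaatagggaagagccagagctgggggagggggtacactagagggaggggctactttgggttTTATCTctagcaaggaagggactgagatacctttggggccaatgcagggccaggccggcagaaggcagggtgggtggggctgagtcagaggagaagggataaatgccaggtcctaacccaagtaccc
SPTB: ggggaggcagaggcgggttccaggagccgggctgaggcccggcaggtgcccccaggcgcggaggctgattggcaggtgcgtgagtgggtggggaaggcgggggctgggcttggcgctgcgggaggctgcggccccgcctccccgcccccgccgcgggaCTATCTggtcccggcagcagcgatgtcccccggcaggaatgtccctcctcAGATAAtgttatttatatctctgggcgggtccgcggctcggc
The other listed start of SPTB holds 0 matches. At least 1 match stood in 22.3% of all 35116 promoters of this length, in 14.02% of those of the genes measured here, in 17.02% of the 47 promoters of genes called higher and in 16.9% of the 349 of genes called lower. A match is a run of letters, and whether a factor was bound there was not measured.

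Among the transcription factors, GFI1B, a repressor needed by red cell and platelet precursors, was called higher. Its medians were 173 CPM in the high group and 112 CPM in the low group, with a difference of 1.75, of 1.09 in Green and 2.25 in Orange, and of 0.68 and 1.46 within the number sets. GFI1B kept its call in 12 of 18 other settings, and lost it with log2(CPM + 10) and with number sets in place of stains. ID3, which blocks basic helix-loop-helix factors, was above 2 reads in 18 of 30 high-group libraries, or 60% (40.6 to 77.3), and in 6 of 30, or 20% (7.71 to 38.6), of the low group. ID3 differed by 1.47 overall and passed 1 in each stain and in each number set. HEMGN, a nuclear protein of red cell precursors, had medians of 72.98 and 33.8 CPM and differed by 1.72, but by only 0.88 in Green, so it was not called.

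Of the 24 leading genes, 12 each way, 20 overlap a gene on the opposite strand in the annotation. These overlaps are of whole gene spans, introns included. The library kit keeps no strand, and whether counted reads lie in the overlaps was not measured. AHSP, RPUSD2 and CTSH overlap none.

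The remaining genes among the 12 highest had more varied roles. PLCD1, a phospholipase C, had medians of 18.1 and 0.63 CPM and a difference of 1.98. AP3D1, a subunit of the adaptor that sorts cargo to lysosomes, had medians of 73.999 and 26.1 CPM and a difference of 1.74. CARS2, TWNK and ECI1 act in mitochondria, as the cysteinyl-tRNA synthetase, the DNA helicase and an enzyme of fatty acid breakdown, and differed by 1.68, 1.48 and 1.58. ECI1 differed by only 0.15 within numbers 1 to 48. SCIN, which severs actin filaments, was above 2 reads in 11 of 30 against 3 of 30 libraries and differed by 1.74. GNA11, a G protein alpha subunit, differed by 1.44, but by 0.41 within numbers 49 to 96. TBC1D10B, which turns off Rab proteins, differed by 1.75, but by 0.23 within numbers 1 to 48. RPUSD2 differed by 1.96, but by -0.43 within numbers 1 to 48 and 2.39 within 49 to 96.

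The erythroid lists chosen from the pathway showed how far this went beyond the leading genes. Across all 22 lists 479 genes were measured, and 5 (1.04%) were called higher and 11 (2.30%) lower, against 0.505% and 2.90% of all genes. The median of a list had the same sign in both stains for 14 of the 22 lists and in both number sets for 11. Of the 37 called genes named in this account by the rule for naming, 33 kept their sign in both number sets and 11 were past 1 in both. Of the 35 named genes without a call, mostly extremes of lists, 15 kept their sign in both. The number sets split the same 91 libraries that gave the calls, so this agreement was partly fixed in advance. In the Hoechst and benzene runs described below, which the rule did not use, 17 of the 37 and 18 of the 35 kept their sign in both. In the red cell membrane and skeleton list, 28 of 34 genes were measured, 1 was called higher and 0 lower. Its median difference was 0.40 against -0.19 for all genes, and 22 of its genes lay above 0. Within numbers 1 to 48 its median was 0.73, against 0.04 for all genes, and within 49 to 96 it was 0.13, against -0.05. SPTB was its highest member and CD55, which guards cells from complement, the lowest at -0.88.

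Haem synthesis was more mixed. Of its 21 genes 19 were measured, with 1 called higher (ALAS2) and 1 lower (ALAS1), and 12 lay above 0. Of all genes 0.505% were called higher and 2.90% lower, and 63.8% lay below 0. The median difference was 0.18, but it was 0.74 within numbers 1 to 48 and -0.36 within 49 to 96, so its direction depended on the set. The erythroid transcription factors had a median of 0.42 over 18 genes measured, 13 of them above 0, with GFI1B as the single call. Their median was -0.05 and 0.18 within the number sets. FOXO3, a factor active in late red cell precursors, was their lowest member at -0.87.

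For the other erythroid proteins, 24 of 35 genes were measured, AHSP was the single call, and the median was 0.15. DCAF12, a ubiquitin ligase adaptor, was the lowest at -1.20. Iron handling had a median of -0.18 over 17 genes and no call, between GLRX5, which helps build iron-sulphur clusters, at 0.84 and the iron transporter SLC11A2 at -1.25. The regulators of globin switching had a median of 0.04 over 18 genes and no call. EHMT2, a histone methyltransferase, was highest at 0.93, and the nuclear receptor NR2C2 lowest at -0.54, while BCL11A, the repressor of fetal globin, had no read in any kept library.

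**Figure D4:**
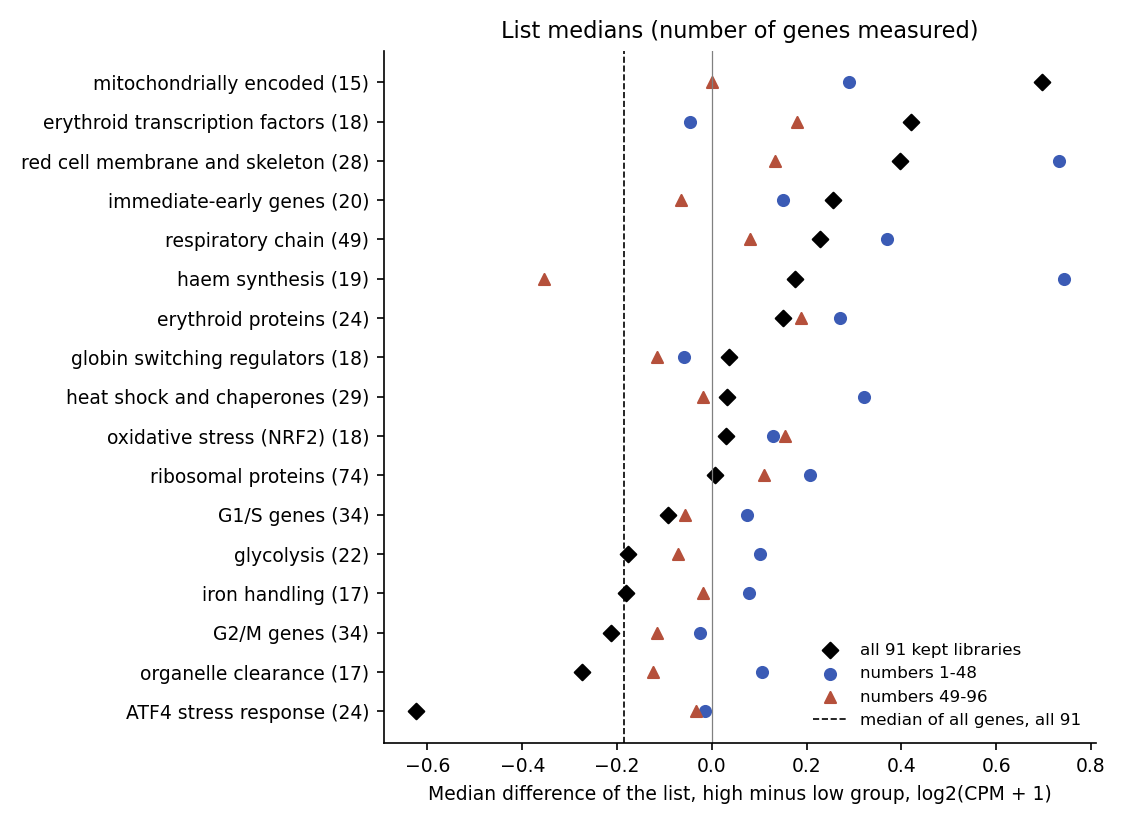
Median difference between the high and low groups in mean log2(CPM + 1) (horizontal axis) for the 17 lists with at least 15 genes measured, with the number of genes in parentheses. Black diamonds use all 91 kept libraries, circles numbers 1 to 48 and triangles 49 to 96, and the dashed line is the median of all genes. Red cell membrane genes lie at 0.40, 0.73 and 0.13, while the ATF4 list lies at -0.62 with all libraries and near 0 within each number set.

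FRMD5, a protein of cell contacts, led the genes that were lower in globin-high cells. Its lowest, median and highest levels were 0, 0.82 and 328 CPM in the high group and 0, 84.5 and 1316 CPM in the low group. It was above 2 reads in 11 of 30 high-group libraries, or 36.7% (19.9 to 56.1), and in 24 of 30, or 80% (61.4 to 92.3), of the low group. Mean log2(CPM + 1) was 2.20 ± 2.86 against 5.55 ± 2.85 (SD, 30 libraries each), a difference of -3.35. The middle group stood at 2.11, next to the high group. FRMD5 also moved with the number sets, being above 2 reads in 39 of 47 libraries numbered 1 to 48 and in 10 of 44 numbered above 48. The 3 low-group libraries numbered above 48 had 0 detections, as against 24 of the 27 numbered 1 to 48. With groups cut inside each set the difference was -2.09 within numbers 1 to 48 and -0.60 within 49 to 96.

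SQSTM1, the p62 receptor that delivers cargo to autophagy, was above 2 reads in all 30 low-group libraries and in 25 of 30 of the high group. Its medians were 106 CPM (23.3 to 1062) in the low group and 35.9 CPM (0 to 227) in the high group, a difference of -2.24. It held at -1.63 and -1.39 within the number sets. ANTXR2, a receptor of matrix proteins and of anthrax toxin, differed by -2.004 overall and by -2.59 and -2.25 within the sets, so it was nearly as large where the score span was narrow. KANSL1, a subunit of a histone acetyltransferase complex, differed by -2.05, and by -1.94 and -1.75 within the sets, and was detected in 25 and 29 of 30 libraries.

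**Figure D5:**
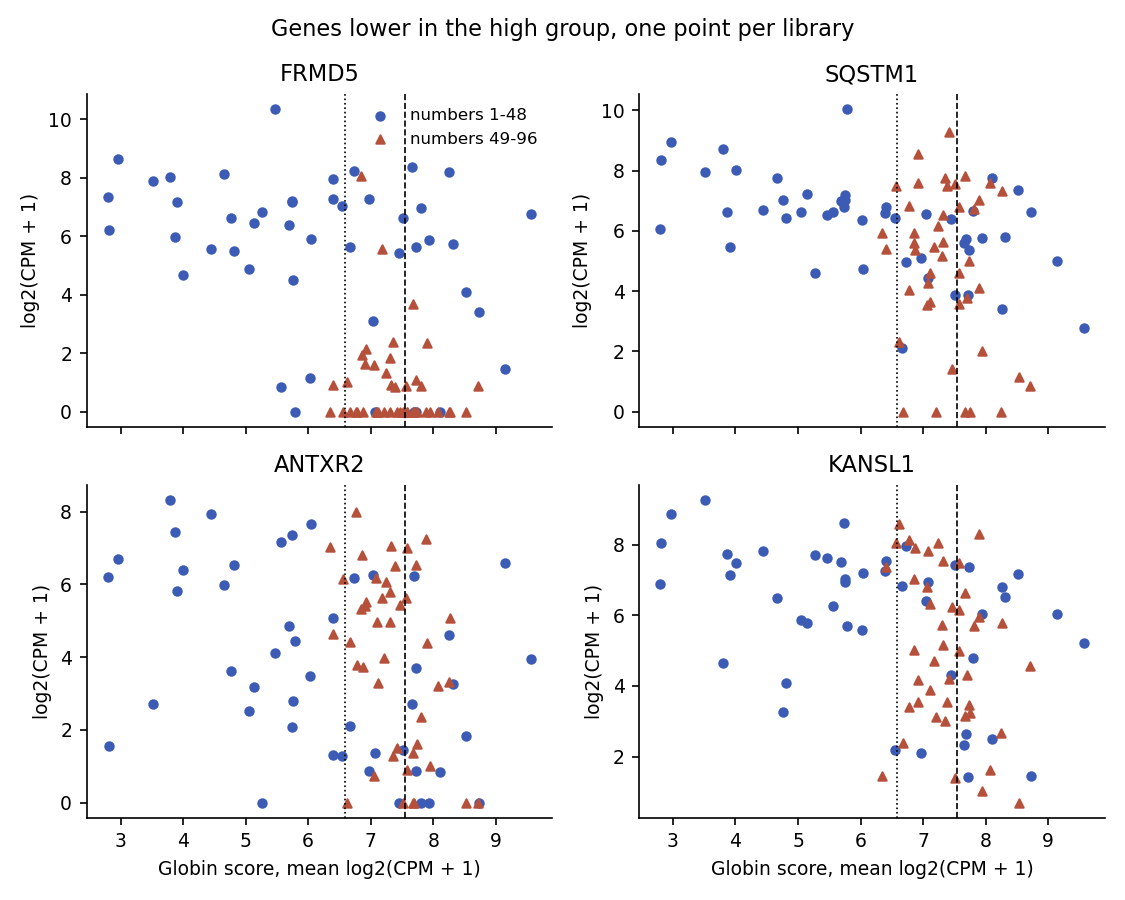
Level of FRMD5, SQSTM1, ANTXR2 and KANSL1 in log2(CPM + 1) (vertical axes) against the globin score (horizontal axes), 1 point per library, circles for numbers 1 to 48 and triangles for 49 to 96. Dotted and dashed lines mark the low and high cut-offs. SQSTM1 was above 2 reads in all 30 libraries left of the dotted line, while FRMD5 had no read in 3 libraries there and in 14 right of the dashed line.

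Other genes among the 12 lowest included ETV4, an ETS factor induced by ERK signalling, at -1.70, with medians of 2.10 CPM in the high group and 38.7 CPM in the low group. CTSH, a lysosomal protease, was at -1.97, and STIM1, the calcium sensor of the endoplasmic reticulum, at -1.99. GMPR2, which returns GMP to IMP, was at -2.02, NFXL1 at -2.001, PPIL3 at -1.91, ASCC1 at -1.75 and BAIAP2 at -1.54. ETV4, CTSH and GMPR2 were past -1 in both number sets, while STIM1, NFXL1, PPIL3 and ASCC1 were between -0.35 and -0.72 within 49 to 96 and BAIAP2 was at 0.25 there.

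In the ATF4 stress response, which raises amino acid synthesis and transport, 19 of 24 genes measured lay below 0, 3 were called lower and 0 higher, where 2.90% of all genes were called lower. The median difference was -0.62, the lowest of the lists with at least 15 genes measured. It was -0.15 in Green, where all genes had -0.13, and -0.84 in Orange, where all genes had -0.21. PSAT1 and PHGDH, which make serine, were at -1.91 and -1.75, and PCK2, a mitochondrial enzyme of phosphoenolpyruvate synthesis, at -1.97. PSAT1 had medians of 13.8 CPM in the high group and 63.7 CPM in the low group. Within the number sets the list's medians were only -0.01 and -0.03, and PHGDH was at 0.03 within numbers 1 to 48 and PCK2 at -0.19 within 49 to 96. The call of PHGDH held in 8 of 18 other settings. The pooled and within-set medians thus differ, and the part of the number sets in the pooled one was not tested. In the Hoechst and benzene runs described below, the list's medians were 0.31 and 0.18, of the opposite sign.

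Mitochondrially encoded genes showed the same dependence in the other direction. All 15 lay above 0 with a median of 0.70 and no call, from MT-CO1 at 0.01 to MT-ND3 at 0.85, but the median was 0.29 within numbers 1 to 48 and close to 0 within 49 to 96. The respiratory chain subunits coded in the nucleus had a median of 0.23, with 35 of 49 above 0, and ribosomal protein genes had 0.01, with 39 of 74 above 0. COX6B1, a subunit of cytochrome c oxidase, was highest of the former at 0.64, and UQCRC2, of complex III, lowest at -1.05. RPL41 at 0.44 and RPL21 at -1.25 were the extremes of the ribosomal proteins.

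Cell cycle and glycolysis genes gave few calls, where 0.505% of all genes were called higher and 2.90% lower. G1/S genes had a median of -0.09 over 34 genes, with cyclin E2 (CCNE2) called lower at -1.35, CDT1, a licensing factor, highest at 1.04, and GINS1, of the replicative helicase, lowest at -1.80 without a call. CCNE2 was at only -0.28 and -0.21 within the number sets and kept its call in 9 of 18 other settings, and CDT1 was at -0.39 within 49 to 96. G2/M genes had a median of -0.21 over 34 genes, with the mitotic kinesin KIF23 called lower at -1.19 and MKI67, the Ki-67 antigen, highest at 0.81. KIF23 was at -0.53 and -0.82 within the number sets. Glycolysis had a median of -0.18, next to that of all genes, with the muscle phosphofructokinase PFKM and the glucose transporter SLC2A3 called lower at -1.44 and -0.83 and the hexokinase HK2 highest at 1.02. SLC2A3 was at -3.22 within numbers 1 to 48 and 0.23 within 49 to 96, where PFKM was at -0.04.

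The signalling and stress lists other than ATF4 gave 1 call each or none, where 0.505% of all genes were called higher and 2.90% lower. The BCR-ABL list had a median of 0.27 over 14 genes, from ETV4 at -1.70 to CISH, a STAT5 target, at 1.79, which was 0.23 in Green and 2.84 in Orange. The list's median was 0.13 within numbers 1 to 48 and -0.63 within 49 to 96. Immediate-early genes had 0.26 over 20 genes, with ID3 as the only call and FOSL1 lowest at -0.97. Their median was -0.44 in Green and 0.32 in Orange, and 0.15 and -0.07 within the number sets, so neither list had one direction throughout. Organelle clearance had -0.27 over 17 genes, between the protease CTSD at 0.83 and SQSTM1, its single call. Heat shock genes and NRF2 targets each had 0.03, with HSPH1 at 0.84, DNAJB6 at -0.75, GCLM at 1.05 and NQO1 at -1.26 as their extremes, and no call.

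Markers of other lineages gave 1 call, where 2.90% of all genes were called lower. Their medians were -0.65 over the 5 megakaryocyte genes measured and -0.90 over the 3 myeloid ones. They were 0.18 over the 6 progenitor genes and 0.09 over the 2 lymphoid ones. In Green and Orange the medians were -0.51 and 0.02 for the megakaryocyte list and -0.19 and -1.78 for the myeloid list. For the progenitor list they were -0.32 and 0.18, and for the lymphoid list -0.23 and 0.28. CD33, a myeloid surface receptor that was above 2 reads in 17 of 30 high-group and 23 of 30 low-group libraries, was at -1.72 and was the call, at -0.34 and -0.74 within the number sets. Among the megakaryocyte genes, the extremes were F2R at 0.50 and MEIS1 at -1.50. GATA2 was highest among the progenitor genes at 0.92, though at -0.48 in Green and 2.28 in Orange. The leucocyte gene PTPRC was at 0.59 and CD3D at -0.42, and CST3, highest of the myeloid list, was at 0.16.

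Ranked by Spearman correlation with the score over the 91 libraries, the highest genes were AHSP (rho 0.50), HDGF, ATP5ME, HEMGN and SCIN (0.41 to 0.42). The lowest were PIP4K2A (-0.46), ENSG00000196369 (-0.44), ENSG00000226899 (-0.43), FRMD5 (-0.43) and KANSL1 (-0.43). These points share their libraries and totals with the score and are given as a description. HDGF, a growth factor, and ATP5ME, a subunit of ATP synthase, were detected in nearly every library and differed by 1.21 and 0.68, though HDGF was at -0.25 within numbers 49 to 96. PIP4K2A, a lipid kinase detected in all libraries of both groups, had medians of 244 CPM in the high group and 471 CPM in the low group, a difference of -0.96. Within numbers 1 to 48 its rho was -0.43 and within 49 to 96 it was -0.14, against 0.66 and 0.31 for AHSP.

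The same cut was made in the other runs, whose libraries the rule did not use. In the run with Hoechst-stained cells, 25 libraries formed each group, and in the run with untreated Green cells and Orange cells given 10 mM benzene for 3 h, 20 did. The labels give the benzene run passages 20 to 22, as for the imatinib run, and the Hoechst run a higher passage range. The study used Hoechst in the experiment for which it names a distinct lot of K562 cells. Run, lot and passage therefore cannot be told apart for the Hoechst values. Of the 53 genes called higher, 37 (69.8%) were above 0 in the Hoechst run, against 52.6% of all genes measured, and 28 (52.8%) in the benzene run, against 52.7%. Of the 304 called lower, 192 (63.2%) were below 0 in the Hoechst run, against 47.4%, and 162 (53.3%) in the benzene run, against 47.2%. AHSP differed by 0.47 in the Hoechst run and 0.92 in the benzene run, ALAS2 by 1.85 and 0.15, and SPTB by 2.37 and 0.28. FRMD5 was at -2.53 and -0.79, SQSTM1 at -0.12 and -2.54, and ANTXR2 at -0.69 and -2.50. GFI1B was at 0.40 and -0.19 and KANSL1 at -0.09 and 0.40, so both turned in the benzene run. Of the 12 highest genes, 12 were above 0 in the Hoechst run and 7 in the benzene run, and of the 12 lowest, 9 and 7 were below 0.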

How the data were processed

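Per the labels and the study's methods, single cells were captured on the C1 system and made into SMARTer libraries, a kit that keeps no strand. The authors trimmed reads, aligned them with HISAT2 to GRCh37 plus the ERCC spike-in sequences, and counted reads unique to Ensembl genes with featureCounts (Subread 1.5.0, per the submitters' processing notes). The deposited table holds raw read counts per gene, without molecular identifiers, for 63677 genes and 92 ERCC rows. Reads that match several genes were not counted. Of the gene IDs, 55665 were named through the GENCODE annotation lifted to GRCh37. The deposited CPM table was not used, and 4 columns whose names matched no single label were left out. No libraries held identical counts.

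Run and stain came from the labels. Libraries were kept with at most 70% of reads in the top 500 genes and fewer than 10000 genes at more than 2 reads, which left out 5 of 96. These were Green 4 (84.0% in the top 500 genes) and libraries 93 to 96 (over 10000 genes each), and whether these are the study's bulk controls is not given in the labels. CPM was computed from the counts without ERCC rows, and differences are between means of log2(CPM + 1), a scale that understates changes of low genes. Genes were called at a difference of 1 in both stains, after a filter of more than 2 reads in 20% of libraries. Named genes were the 12 highest and 12 lowest protein-coding genes by the smaller difference of the 2 stains, called members and both extremes of each list, and the 5 highest and 5 lowest correlations with the score. Of 617 list entries 4 were not matched, and a few genes of the lists are not reported here. The members, lists and thresholds were chosen with earlier results of these data known. No test was run, since the groups were cut from a measured value and each stain was 1 culture. Intervals are exact 95% binomial or Poisson ones and cover counting error only. Alternatives included normalization factors from edgeR 4.0.16 (TMMwsp) and DESeq2 1.42.0 (poscounts). The code was checked on simulated counts. Analyses used Python 3.11.15, pandas 2.3.3, scipy 1.17.1, matplotlib 3.10.9 and R 4.3.3.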

Additional observations from a re-analysis of the deposited data

How the results depend on the processing

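With 53 genes higher and 304 lower in the globin-high group as reported, the counts moved by over 1.5 times in these settings. Groups of 22 libraries gave 145 higher, and groups of 45 gave 27 higher and 139 lower. A score of HBE1 and HBZ gave 81 and 565, and one of HBA1 and HBA2 gave 151 lower. log2(CPM + 10) gave 4 and 14, and a threshold of 0.5 gave 405 and 1311. TMMwsp factors gave 113 higher and poscounts size factors 104 higher. Without the limit on genes there were 86 and 156. Of settings chosen after seeing the data, library numbers in place of stains gave 96 and 137, and centring on the median 117 and 176. The filters on low values, the scaled score, CPM without globin and mitochondrial reads, thinning to 500000 reads, the 60% limit and leaving out Green 43 and Orange 42 moved neither count that far. The genes called changed as well as their number. Of the 53 and 304, only 22 and 97 were called again with the score of HBA1 and HBA2. With the score of HBE1 and HBZ 29 and 194 were. Groups of 22 libraries kept 29 and 159 of them, and groups of 45 kept 12 and 80. AHSP lay between 1.24 and 3.90 and GFI1B between 0.68 and 2.16 over the settings within the imatinib run. The cause of these shifts was not tested.

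In the benzene run some called genes had the opposite sign, with CARS2 at -0.85, AP3D1 at -1.22, GNA11 at -0.44, TBC1D10B at -0.30, ECI1 at -0.32 and GFI1B at -0.19. The same held there for ETV4 at 1.44, PPIL3 at 1.55, CTSH at 0.75, ASCC1 at 1.12, KANSL1 at 0.40, ALAS1 at 0.76, KIF23 at 1.68, PFKM at 0.91, PSAT1 at 0.21, PHGDH at 0.47, PCK2 at 1.71 and ENSG00000196369 at 0.22. In the Hoechst run it held for GMPR2 at 1.14, ETV4 at 0.57, ASCC1 at 0.0194, CCNE2 at 0.0639, KIF23 at 0.14, PFKM at 0.35 and PCK2 at 0.0453. Within numbers 1 to 48 it held for RPUSD2 at -0.43 and PHGDH at 0.0334, and within 49 to 96 for BAIAP2 at 0.25 and SLC2A3 at 0.23. Of the 13 genes called higher by both stain and number set, the sign also turned for NCALD at -0.52, PARP14 at -0.61, PSKH1 at -0.62 and FBXO21 at -0.31 in the Hoechst run, and for OCRL at -1.37 and PSKH1 at -1.03 in the benzene run. No paired analysis was possible because the labels pair no library of the run with another. Depth limits what can be said of genes below a few CPM.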
